A study of Mus musculus with 7 samples.

Results

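Myeloid cells reach the skin through a small set of surface receptors, and the transcripts of 8 of them were followed here in mouse epidermis after bone marrow transplantation (BMT). The set was fixed by gene symbol: the chemokine receptors Ccr1, Ccr2, Ccr6, Cx3cr1 and Cxcr4 and the integrin alpha chains Itgam (CD11b), Itgax (CD11c) and Itga4 (CD49d). All 8 were found among the 15155 genes of the donor table and among the 23737 genes of the host table. Marrow of female CD45.1 C57BL/6 mice had been given to male C57BL/6 hosts (CD45.2) after lethal irradiation, and epidermis was taken 3 weeks later. Donor CD11b+MHCII+ cells came as 3 libraries labelled BMT, with 2572, 8382 and 226 cells, and 1 library of 719 cells labelled BMT with T cells (BMT + T cells). Host CD11b+MHCII+ cells gave 1 library of 781 cells, and CD45-negative keratinocytes of the male hosts gave 1 library under each label. The design text of the series gives CD4 T cells, and also CD8 T cells of the Matahari type, which recognise a male antigen, to the transplanted mice without separating the labels, so that groups are compared by label only. The epidermis of several mice had been pooled for sorting, in separate experiments for the donor cells, and which library came from which experiment and any age were not stated in the sources used here.

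Chemokine receptors are G protein-coupled receptors that turn a gradient of chemokine into directed movement. CCR2 releases classical monocytes from the marrow and draws them to inflamed tissue along CCL2 and CCL7, CCR1 binds CCL3, CCL5, CCL9 and related chemokines, CXCR4 binds CXCL12 and retains cells in the marrow, CX3CR1 binds the membrane-tethered chemokine CX3CL1, and CCR6 binds CCL20, which epithelia make. Integrin alpha chains pair with a beta chain to hold cells on endothelium and matrix: CD11b and CD11c pair with the Itgb2 chain, and CD49d pairs with the Itgb1 or the Itgb7 chain to bind VCAM-1, fibronectin or MAdCAM-1. In skin these receptors are known for carrying monocytes in, and another receptor, CCR7, for carrying Langerhans cells (LCs), the resident macrophages of the epidermis with dendritic cell functions, out to lymph nodes.

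The 8 genes lie on 5 chromosomes (RefSeq, GRCm38.p6, the build named in the labels without its patch). Itgam (chr7:128062640-128118491) and Itgax (chr7:128129526-128150657) are neighbours separated by 11034 bases, and Ccr1 (chr9:123962126-123968692) and Ccr2 (chr9:124101918-124109140) are separated by 133.2 kb. Cx3cr1 (chr9:120048683-120068296) lies on the same chromosome as the last pair, while Cxcr4 (chr1:128588199-128592299), Itga4 (chr2:79255426-79333114) and Ccr6 (chr17:8236041-8258519) stand alone. The members of each pair named above were highest in different clusters, as given further on, and for that reason their promoters are shown. Each window runs from 250 bases before to 50 bases after the start annotated for the promoter, 5′ to 3′ on the strand of the gene. For Itgax and Ccr2 that start lies inside the gene interval given above, and the Ccr2 window lies wholly within it. Capitals mark GAGGAA or its complement TTCCTC, the core of sites for the myeloid factor PU.1, searched on both strands.

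Itgam (chr7:128062390-128062689, + strand): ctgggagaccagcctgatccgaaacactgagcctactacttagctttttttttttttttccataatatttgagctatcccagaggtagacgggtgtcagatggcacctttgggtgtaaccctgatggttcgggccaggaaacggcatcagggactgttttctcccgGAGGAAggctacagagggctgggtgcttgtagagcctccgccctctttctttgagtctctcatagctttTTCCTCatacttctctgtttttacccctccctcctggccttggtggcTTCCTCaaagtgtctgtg
Itgax (chr7:128129300-128129599, + strand): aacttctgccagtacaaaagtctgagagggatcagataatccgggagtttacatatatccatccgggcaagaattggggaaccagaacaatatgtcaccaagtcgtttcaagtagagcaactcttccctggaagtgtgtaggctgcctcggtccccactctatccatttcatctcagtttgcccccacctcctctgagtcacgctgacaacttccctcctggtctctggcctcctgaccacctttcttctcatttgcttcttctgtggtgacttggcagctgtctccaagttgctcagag
Ccr1 (chr9:123968643-123968942, - strand): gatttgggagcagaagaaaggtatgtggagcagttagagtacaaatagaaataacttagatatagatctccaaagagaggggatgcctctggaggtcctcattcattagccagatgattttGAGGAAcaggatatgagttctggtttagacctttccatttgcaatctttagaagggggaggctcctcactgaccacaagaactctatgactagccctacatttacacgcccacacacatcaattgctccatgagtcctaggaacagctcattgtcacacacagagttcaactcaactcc
Ccr2 (chr9:124101933-124102232, + strand): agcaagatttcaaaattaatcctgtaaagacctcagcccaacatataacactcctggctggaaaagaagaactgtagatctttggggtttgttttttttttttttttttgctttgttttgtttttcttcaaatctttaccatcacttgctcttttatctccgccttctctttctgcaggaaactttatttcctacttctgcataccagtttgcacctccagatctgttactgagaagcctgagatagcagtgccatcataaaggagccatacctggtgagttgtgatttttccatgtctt

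The Itgam window held 3 of these letter runs and the Ccr1 window held 1, while the Itgax and Ccr2 windows held none. Of the 9 annotated promoters of the 8 genes, 3 held at least 1 run (Itgam, Ccr1 and 1 of the Ccr6 promoters), against 28.3% of all 32851 promoters of the same length. No binding was measured here, and a match is a description of the letters only.

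Levels are unique molecular identifiers (UMIs) per 10000 UMIs of a cell (CP10K), averaged over the cells of a library and an annotated cluster. Libraries held between 2982296 and 64343817 UMIs among the donor cells, with median depths per cell of 7021.5 to 13387 UMIs, and 5141845 UMIs in the host library with a median of 4376. The authors annotated 9 donor clusters: monocytes (Mono), S100a+, Hmox1+ and interferon-stimulated (ISG) monocytes, Mrc1+ macrophages, an intermediate cluster named MC, and resident, cycling and migrating monocyte-derived LCs (mLCs). Summed monocyte markers reached 99.6 to 185 CP10K in Mono against 1.70 to 1.98 in resident mLCs, LC markers 76.7 to 106 CP10K in resident mLCs against 1.80 to 4.25 in Mono, and markers of migration 55.1 to 64.8 CP10K in migrating mLCs against at most 2.38 elsewhere. Macrophage markers summed to 91.0 to 159 CP10K in Mrc1+ macrophages and 21.8 to 86.3 in Mono, but Mrc1 itself was not higher in the cluster named for it (log2 difference from Mono −0.03, adjusted p = 0.98), and the neutrophil marker sum of S100a+ monocytes was 559 CP10K. T cell markers summed to at most 0.178 CP10K in every donor cluster. Values below use the 27 combinations of library and cluster with at least 20 cells: Mono, Mrc1+ macrophages and resident mLCs were represented in all 4 libraries, MC and the ISG, Hmox1+ and cycling clusters in BMT 1, BMT 2 and BMT + T cells, migrating mLCs in BMT 1 and BMT 2, and S100a+ monocytes in BMT 2. The clusters had been drawn from the same values, so a difference between them is part of how they were drawn. Cells were sorted on CD11b, so the presence of Itgam is no finding, and Itgax was among the genes used to name MC, so its level there is described without a test.

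**Figure D1:**
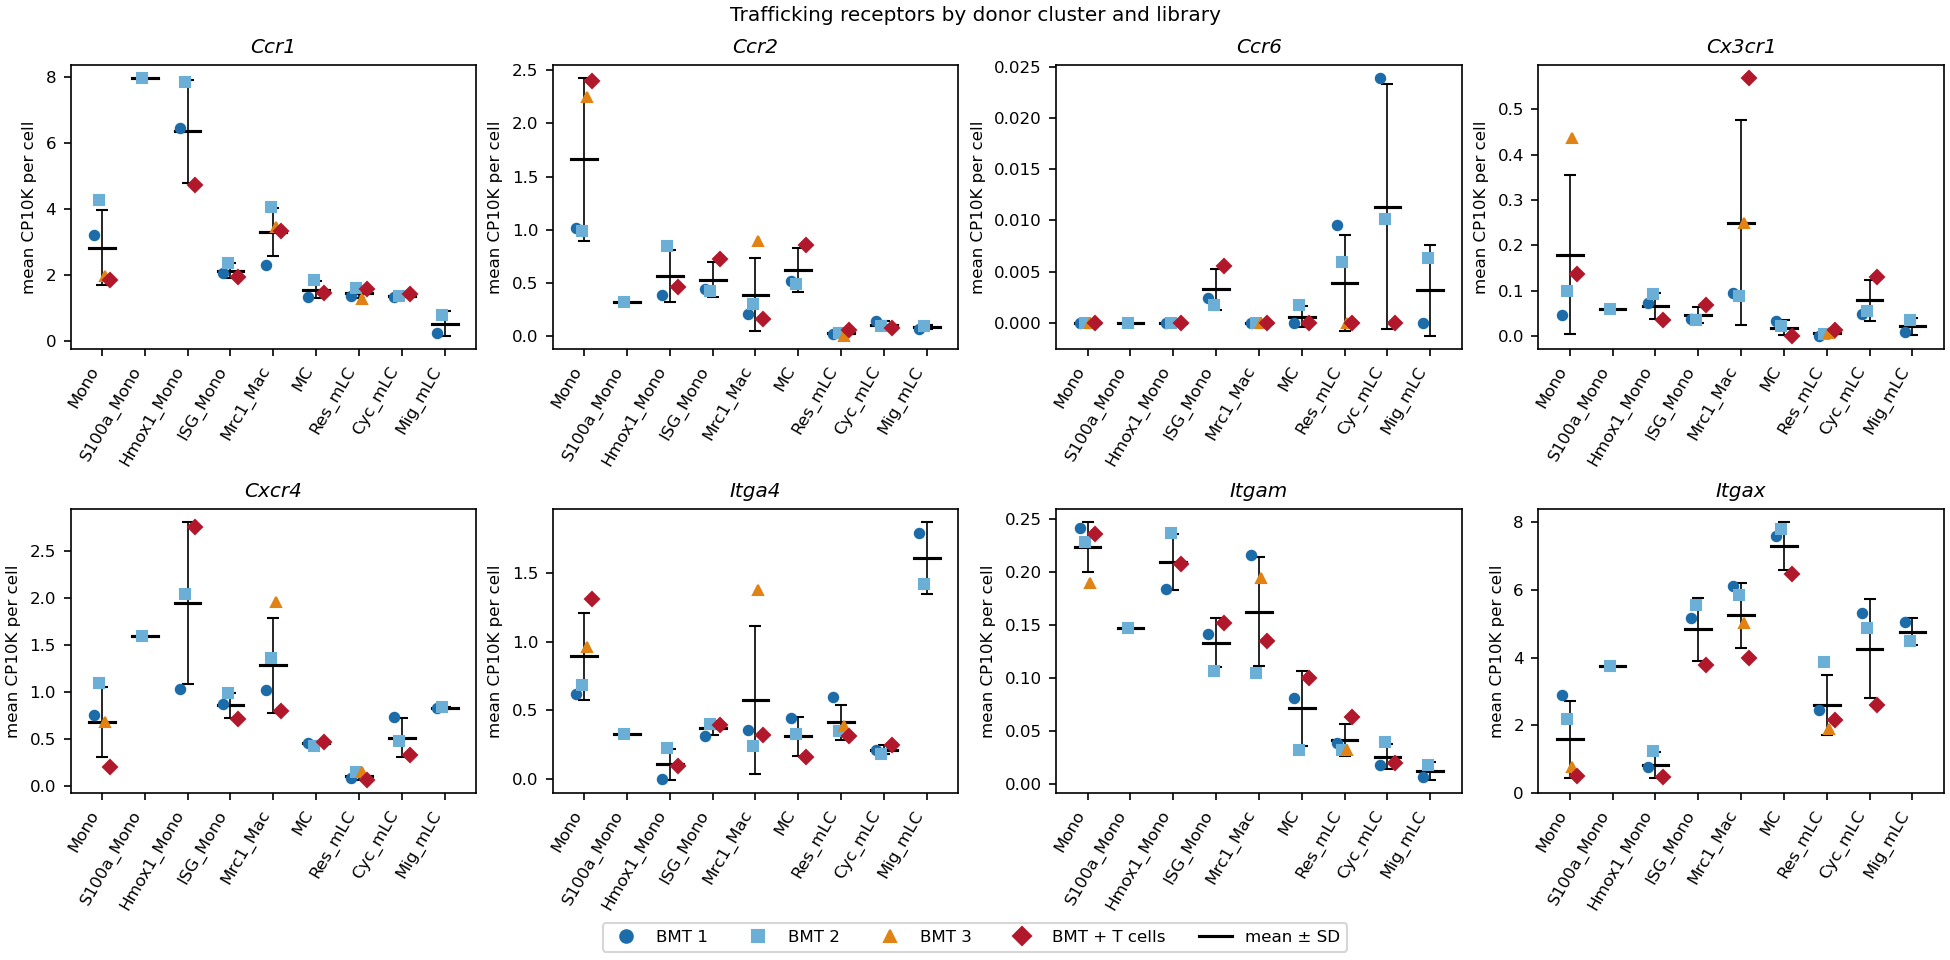
Mean level (CP10K, linear axis of its own for each gene) of the 8 receptors in the 9 donor clusters, with 1 coloured point per library, a bar at the mean over libraries and a whisker of 1 SD where there was more than 1 library. Ccr2 stands highest in Mono (mean 1.66) and lowest in resident mLCs (mean 0.0296), Itgax is highest in MC, Itga4 in migrating mLCs, and Ccr1 in S100a+ and Hmox1+ monocytes.

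Ccr2 separated monocytes from resident mLCs more than any other member tested. Its level in Mono was 1.02 in BMT 1, 0.984 in BMT 2, 2.25 in BMT 3 and 2.39 CP10K in BMT + T cells, and in resident mLCs it was 0.0250, 0.0316, 0 and 0.0620 in the same order. The lowest monocyte value was thus far above the highest mLC value, and the BMT 3 zero (0 of 51 cells) allows a share of cells with a Ccr2 UMI of up to 5.88%. On the log2(CP10K + 0.1) scale resident mLCs differed from Mono by −3.68 ± 0.31 (difference ± SE, limma adjusted p = 1.5e-09 over all genes tested). MC lay between, at 0.522 in BMT 1, 0.489 in BMT 2 and 0.858 in BMT + T cells: the step from MC to resident mLC was −2.62 ± 0.35 (log2 difference, adjusted p = 5.0e-06), while the step from Mono to MC was −1.05 ± 0.35 and missed the threshold (adjusted p = 0.067), although it passed after every cell was thinned to 2000 UMIs (−1.73, adjusted p = 0.034). Mrc1+ macrophages had 0.205, 0.301, 0.896 and 0.161 CP10K, which was −1.95 ± 0.31 against Mono (adjusted p = 2.7e-04). The BMT 3 value of these macrophages rested on 10 UMIs in 7 of 45 cells. In the order of mean levels Mono exceeded MC by more than the spread over libraries, and MC, Hmox1+ monocytes, ISG monocytes, Mrc1+ macrophages and S100a+ monocytes followed each other within it. Between 34.0% and 67.1% of Mono cells held a Ccr2 UMI. Among keratinocytes, which should lack the gene, 0 of 2836 and 1 of 2590 cells did, at median depths of 8895.5 and 8834 UMIs.

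Cxcr4 was likewise lowest in resident mLCs, but it was highest in other cells. Resident mLCs had 0.0828, 0.148, 0.144 and 0.0622 CP10K in BMT 1, BMT 2, BMT 3 and BMT + T cells, against 1.02, 1.37, 1.96 and 0.800 in Mrc1+ macrophages. Every macrophage value was above every mLC value, and the difference was −2.68 ± 0.29 on the log2 scale (adjusted p = 1.1e-07). Mono had 0.754, 1.09, 0.676 and 0.198 CP10K, so that the monocytes of the BMT + T cells library stood low. Resident mLCs were lower than Mono (−1.76 ± 0.29, adjusted p = 4.2e-05) and lower than MC (−1.54 ± 0.32, adjusted p = 0.0014). The call against MC was lost after thinning (−1.71, adjusted p = 0.096), with averaged log values (−0.29, adjusted p = 0.11) and with a pseudocount of 1 (−0.44, adjusted p = 0.088). Hmox1+ monocytes, named for the heme-degrading enzyme, held the most, with 1.04, 2.05 and 2.76 CP10K in the 3 libraries that had them. In the order of mean levels, from Hmox1+ monocytes over S100a+ monocytes, Mrc1+ macrophages, ISG monocytes, migrating mLCs, Mono, cycling mLCs and MC to resident mLCs, only the last step was larger than the spread over libraries. The difference between Mrc1+ macrophages and Mono was 0.92 ± 0.29 and missed the threshold (adjusted p = 0.054).

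Ccr1 was carried by every cluster and varied less between them than Ccr2. Its level was 7.96 CP10K in the S100a+ monocytes of BMT 2, and 6.46, 7.86 and 4.74 in the Hmox1+ monocytes of BMT 1, BMT 2 and BMT + T cells. Mrc1+ macrophages followed with 2.33, 4.07, 3.46 and 3.35, Mono with 3.23, 4.26, 1.98 and 1.86, and resident mLCs with 1.38, 1.61, 1.29 and 1.59 CP10K. Hmox1+ monocytes exceeded Mrc1+ macrophages by more than the spread over libraries, while Mrc1+ macrophages and Mono overlapped. On the log2 scale resident mLCs were lower than Mono (−0.83 ± 0.20, adjusted p = 0.0021) and lower than Mrc1+ macrophages (−1.10 ± 0.20, adjusted p = 1.2e-04). The first of these missed the threshold without BMT 2 (−0.66, adjusted p = 0.055). MC were also lower than Mono (−0.81 ± 0.22, adjusted p = 0.022), a call lost without BMT 1 (−0.67, adjusted p = 0.14), BMT 2 (−0.68, adjusted p = 0.30) or BMT + T cells (−0.99, adjusted p = 0.052) and after thinning (−0.61, adjusted p = 0.18), and the difference between resident mLCs and MC was −0.02 (adjusted p = 0.96). Beside the high Ccr1 level of the S100a+ cluster stand the neutrophil markers there, with S100a8 at 262, S100a9 at 247, Retnlg at 41.7, Csf3r at 5.14 and Mmp9 at 3.12; all 5 markers in the table were above 0, their sum was 5.86 to 48.6 in Hmox1+ monocytes and at most 9.36 in the other clusters, and its part in the Ccr1 level was not tested.

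Cx3cr1 and Ccr6 were too low for the filter of the fit, which asked for a mean of 0.1 CP10K over the library and cluster combinations. Cx3cr1 was highest in Mrc1+ macrophages, at 0.0946, 0.0875, 0.25 and 0.569 CP10K, and in Mono, at 0.0463, 0.0988, 0.436 and 0.136, and lowest in resident mLCs, at 0, 0.00459, 0.00629 and 0.0144. The resident mLC values lay below all values of Mrc1+ macrophages and Mono. They overlapped those of MC (0 to 0.0341) and migrating mLCs (0.00875 to 0.0349), and they rested on 0, 5, 1 and 8 UMIs. With the filter removed, the difference between resident mLCs and Mono was −1.21 ± 0.32 (adjusted p = 0.011) and that between resident mLCs and Mrc1+ macrophages −1.52 ± 0.32 (adjusted p = 0.0023). Ccr6, the receptor by which LC precursors are known to follow CCL20, gave 9, 21, 0 and 1 UMIs in the whole of BMT 1, BMT 2, BMT 3 and BMT + T cells. None of these UMIs fell in Mono, Mrc1+ macrophages, S100a+ or Hmox1+ monocytes. The shares of cells with a Ccr6 UMI were 0.311%, 0.239% and 0.139% where it was seen, and 0 of 226 cells in BMT 3 allows up to 1.33%, so no order between clusters could be detected at this depth.

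Itgam, whose protein was used for the sort, had its highest mean level in Mono, and Hmox1+ monocytes (0.209 ± 0.0265 CP10K, SD, n = 3) did not differ from Mono (0.224 ± 0.0236, n = 4) beyond the spread. Mono had 0.242, 0.228, 0.189 and 0.236 CP10K, a narrow range, and resident mLCs had 0.0381, 0.0315, 0.0316 and 0.0632. The groups did not overlap, and the log2 difference was −1.20 ± 0.19 (adjusted p = 2.3e-05). MC, at 0.0813, 0.0315 and 0.10 CP10K, were lower than Mono (−0.95 ± 0.21, adjusted p = 0.0049; −0.96 with adjusted p = 0.084 without BMT 1 and −0.79 with adjusted p = 0.33 without BMT 2) and were not separated from resident mLCs (log2 difference −0.25, adjusted p = 0.46). Mrc1+ macrophages, at 0.216, 0.105, 0.194 and 0.135 CP10K, were not separated from Mono (log2 difference −0.32, adjusted p = 0.33), and resident mLCs were lower than these macrophages (−0.88 ± 0.19, adjusted p = 8.6e-04). These 3 calls were lost after every cell was thinned to 2000 UMIs: resident mLCs were then at −0.94 against Mono (adjusted p = 0.135) and at 0.03 against Mrc1+ macrophages (adjusted p = 0.97), a turn of sign, and MC at −1.25 against Mono (adjusted p = 0.155).

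Itgax had another pattern than its neighbour. MC had 7.61, 7.81 and 6.48 CP10K and Mrc1+ macrophages had 6.13, 5.85, 5.03 and 3.99. Mono had 2.88, 2.20, 0.760 and 0.510, so its level in BMT 1 and BMT 2 was above that in BMT 3 and BMT + T cells, and resident mLCs had 2.45, 3.88, 1.88 and 2.16. Resident mLCs were higher than Mono by 0.91 ± 0.24 on the log2 scale (adjusted p = 0.0039), although their ranges overlapped. Within BMT 1 the difference had the other sign (−0.22), against 0.79 in BMT 2, 1.20 in BMT 3 and 1.89 in BMT + T cells. Mrc1+ macrophages were higher than Mono by 1.94 ± 0.24 (adjusted p = 6.2e-06) and resident mLCs were lower than these macrophages (−1.02 ± 0.24, adjusted p = 0.0015). As a description, the difference of MC against Mono was 2.30 and that of resident mLCs against MC −1.38 on this scale. The Mono difference rested in part on the BMT + T cells library: without it the difference between resident mLCs and Mono was 0.59 (adjusted p = 0.076), and without the library block it was 0.91 (adjusted p = 0.071).

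Itga4 was highest in the migrating mLCs, at 1.80 CP10K in BMT 1 and 1.43 in BMT 2, and next in Mono, at 0.619, 0.683, 0.961 and 1.31, the only step in the order of clusters that was larger than the spread. Resident mLCs had 0.600, 0.349, 0.385 and 0.316, below each monocyte value. The difference between resident mLCs and Mono was −0.93 ± 0.35 and passed the threshold narrowly (adjusted p = 0.041). It missed the threshold without a filter on low genes, with a pseudocount of 0.01, after thinning and without the library block. It was also lost without BMT 2 (−0.98, adjusted p = 0.12), without BMT 3 (−0.87, adjusted p = 0.060) and without BMT + T cells (−0.66, adjusted p = 0.255). In MC, at 0.445, 0.328 and 0.163 CP10K, the difference from Mono was −1.11 ± 0.38 (adjusted p = 0.084), and without BMT 3 it was −1.23 (adjusted p = 0.027), as that of Ccr2 became −1.04 (adjusted p = 0.028). Mrc1+ macrophages had 0.356, 0.238, 1.38 and 0.320 CP10K, with BMT 3 apart from the rest, and their difference from Mono was −0.78 (adjusted p = 0.17), or −1.21 (adjusted p = 0.042) without BMT 3. The BMT 3 value rested on 9 UMIs in 6 of 45 cells, at a median depth of 2214 UMIs. After thinning MC and Mrc1+ macrophages both passed against Mono, at −1.89 (adjusted p = 0.015) and −1.65 (adjusted p = 0.026).

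The beta chains these integrins need were distributed unevenly. Itgb2, the partner of CD11b and CD11c, had 6.90, 5.26, 3.93 and 2.94 CP10K in Mono and 0.989, 1.39, 0.906 and 1.10 in resident mLCs. Resident mLCs were lower than Mono (−1.97 ± 0.17 on the log2 scale, adjusted p = 1.8e-09), and also lower than MC (−2.11) and than Mrc1+ macrophages (−2.12), both past the test. Itgb7 went the other way against Mrc1+ macrophages and MC but not against Mono. It had 0.775, 0.987, 1.01 and 1.30 CP10K in resident mLCs and 0.395, 0.463, 0.264 and 0.431 in Mrc1+ macrophages (log2 difference 1.20, past the test), and it was also higher in resident mLCs than in MC by 0.92. Against Mono it was not separated (0.26, limma adjusted p = 0.35), and Hmox1+ monocytes had the highest mean (1.14 CP10K). Itgb1, which many alpha chains share, was lower in resident mLCs than in Mono (log2 difference −0.43, adjusted p = 0.022).

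**Figure D2:**
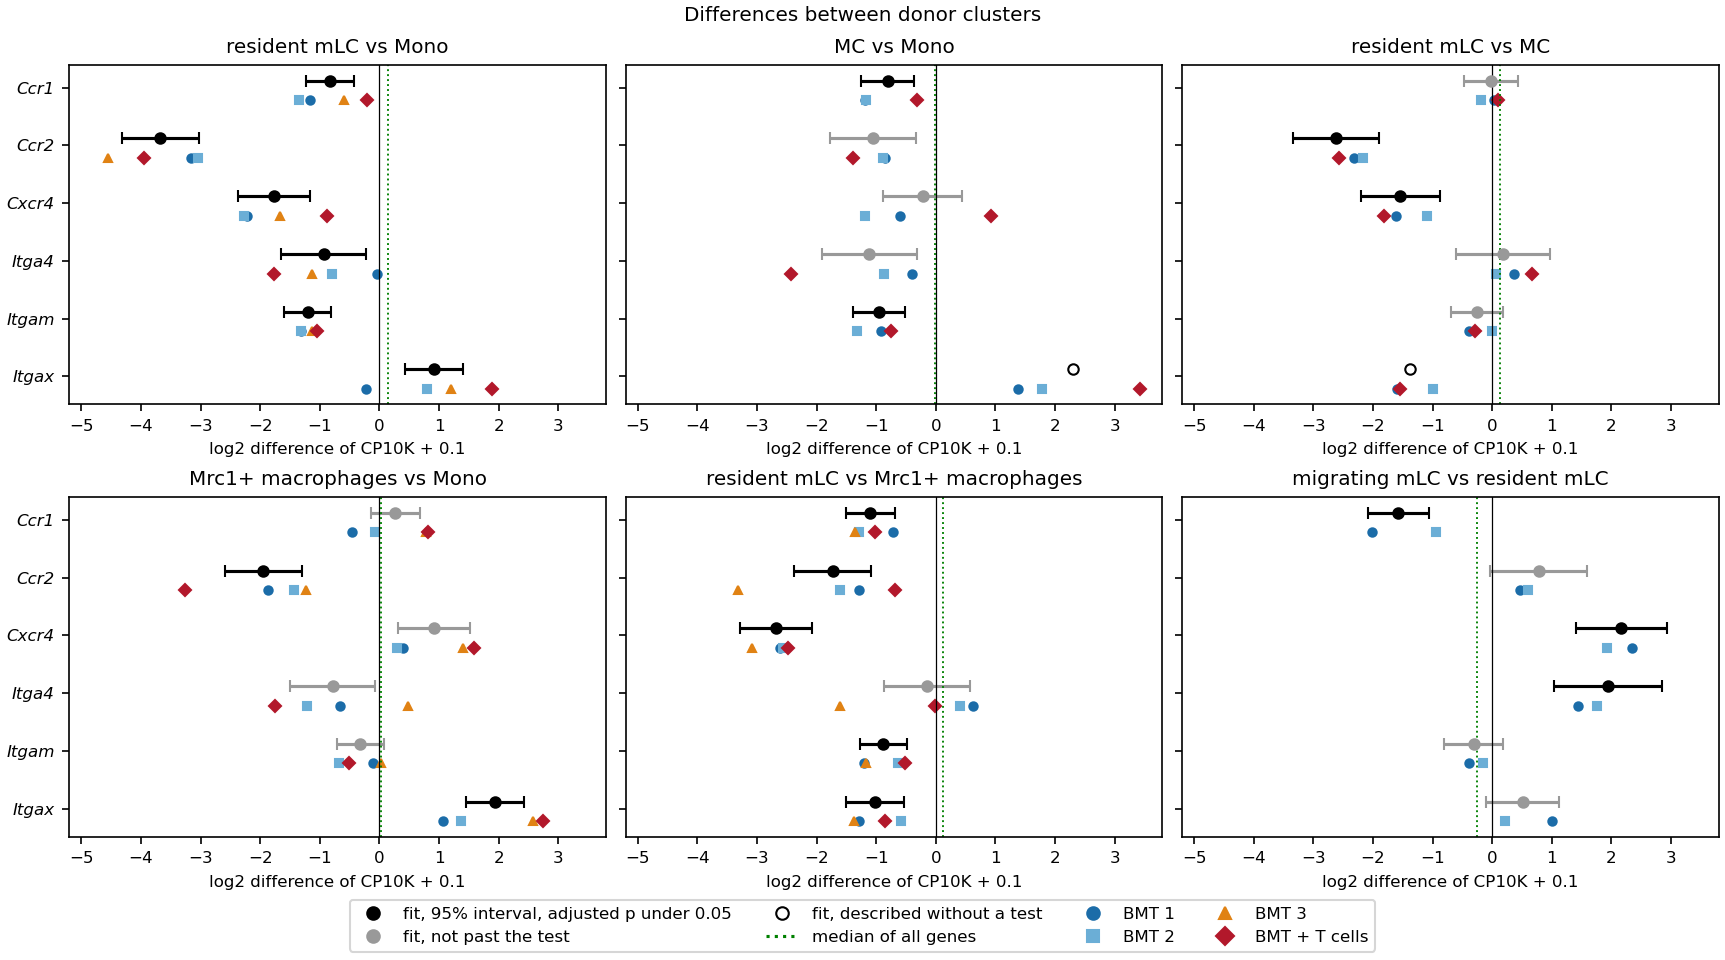
Differences between clusters on the log2(CP10K + 0.1) scale for the members, with the fitted value and its 95% interval (black past the test, grey not, open for Itgax where MC is compared), 1 coloured point per library that held both clusters, and a dotted line at the median of all genes. Ccr2 lies furthest below 0 in resident mLCs against Mono (fitted −3.68), and Cxcr4 and Itga4 lie above 0 in migrating against resident mLCs (fitted 2.17 and 1.94).

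Counted over the set, 6 of the 8 members could be tested among 7267 genes, and a member that passed the filter only through the clusters where it is high had to differ between clusters. Mean Itgam was below the 0.1 CP10K of the filter in MC (0.0710) and in resident (0.0411), cycling (0.0254) and migrating mLCs (0.0117). Mean Ccr2 was below it in resident (0.0296) and migrating mLCs (0.0857). The calls of Itgam and Ccr2 in the counts that follow are therefore a description only. In resident mLCs against Mono 6 of them passed an adjusted p under 0.05, 5 lower and 1 higher, with a background of 32.7% of all genes tested (14.3% lower and 18.4% higher). Only Ccr2 also had an absolute log2 difference above 2, which 4.06% of all genes reached. In MC against Mono, Itgam and Ccr1 passed among the 5 members tested there, both lower, with a background of 7.14% (4.03% lower and 3.11% higher) and 0.922% beyond 2. In resident mLCs against MC, Ccr2 and Cxcr4 passed among those 5, both lower, with a background of 15.7% (7.17% lower and 8.52% higher), and Ccr2 was beyond 2, as were 2.09% of all genes. Mrc1+ macrophages differed from Mono in 2 members, Ccr2, which was lower, and Itgax, which was higher (background 7.86%, with 4.18% lower and 3.67% higher), neither of them beyond 2 (background 0.413%). Resident mLCs differed from Mrc1+ macrophages in 5, all lower (background 31.5%, with 13.6% lower and 17.9% higher), and Cxcr4 was beyond 2, as were 3.51% of all genes; of these 5, Itgam was lost after thinning and Ccr2 with averaged log values (−0.20, adjusted p = 0.10). Comparisons that share a cluster share its libraries and are not independent of each other. The median difference of all genes was 0.14 in resident mLCs against Mono, −0.01 in MC against Mono, 0.13 in resident mLCs against MC, 0.03 in Mrc1+ macrophages against Mono and 0.12 in resident mLCs against Mrc1+ macrophages. The median over the 6 members was −1.07, −0.88, −0.82, −0.03 and −1.06 in the same order.

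Migrating mLCs, the cells poised to leave the epidermis, had a receptor profile apart from that of resident mLCs. Cxcr4 was 0.827 in BMT 1 and 0.840 CP10K in BMT 2 against 0.0828 and 0.148 in the resident mLCs of those libraries, a log2 difference of 2.17 ± 0.37 (adjusted p = 1.5e-04). Itga4 was higher by 1.94 ± 0.44 (adjusted p = 0.0026), and without BMT 2 by 2.08 (adjusted p = 0.065). Ccr1, in contrast, was 0.266 and 0.795 CP10K against 1.38 and 1.61, a difference of −1.57 ± 0.25 (adjusted p = 5.9e-05). These 3 of the 6 members tested passed, with a background of 20.1% of all genes (13.3% lower and 6.81% higher) and a median of all genes of −0.26, and Cxcr4 was beyond 2, as were 2.61%. After thinning to 2000 UMIs only Ccr1 passed (−1.25, adjusted p = 0.0023), and Cxcr4 (1.96, adjusted p = 0.091) and Itga4 (1.51, adjusted p = 0.085) missed the threshold. Ccr2 (0.78, adjusted p = 0.17), Itgax (0.51, adjusted p = 0.24) and Itgam (−0.31, adjusted p = 0.38) missed the threshold. The share of genes lower among those past the test in this comparison was 66.2%, and 43.6% when summed UMIs were scaled by TMM and fitted by limma-voom; under that scaling the medians of all genes lay between −0.0036 and 0.0124 in the 6 comparisons, and in resident mLCs against MC the share lower went from 45.7% to 56.8%. Among chemokine receptors outside the set, Ccr7, the lymph node homing receptor and one of the markers that named the cluster, was higher by 6.25. Both Itgb2 and Itgb1 were higher, by 1.07 and 0.78, and Itgb7 was lower (−1.02).

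The rest of the pathway was read from lists of receptors, ligands and signalling genes. Of all genes tested, 18.4% were higher and 14.3% lower in resident mLCs than in Mono, and 6.81% were higher and 13.3% lower in migrating than in resident mLCs. Of 16 genes that act below chemokine receptors, 6 were higher and 3 lower in resident mLCs than in Mono. Rgs18, which quenches G protein signals, was higher by 3.42 and Elmo1, which couples receptors to the GTPase Rac, by 1.81, whereas Rac2 itself was lower (−3.46). In migrating against resident mLCs 3 of these 16 were higher and 6 lower, with Rgs18 at −3.42, Gng2 at −2.15, Rgs2 at −2.01 and Pik3r5, a regulatory subunit of the phosphoinositide kinase that G proteins activate, at 1.97. The remaining alpha chains included Itgal, the alpha chain of LFA-1, and Itgae, which binds E-cadherin on keratinocytes. Of 6 tested, 1 was higher (Itgae, 1.64) and 3 were lower (Itgal −2.69, Itga1 −2.45, Itga5 −1.12) in resident mLCs than in Mono. Of 9 genes of integrin activation, 1 was higher and 1 lower there. Among other chemokine receptors, Ccrl2 was lower there (−1.79). Cxcr2, a receptor for neutrophil-attracting chemokines, was higher in MC than in Mono by 1.56.

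Most ligands of the members were lower in resident mLCs and in MC than in Mono. Of all genes tested, 14.3% were lower than in Mono in resident mLCs, 4.03% in MC and 4.18% in Mrc1+ macrophages, and 6.81% were higher in migrating than in resident mLCs. Of 8 ligand genes tested, 6 were lower and none higher in resident mLCs than in Mono, among them Ccl8 (−5.15 ± 0.93), Ccl5 (−4.32 ± 0.48), Ccl9 (−3.98 ± 0.45) and Ccl7 (−3.89 ± 0.49), which between them bind CCR1 and CCR2. In MC 5 of 8 were lower than in Mono, with Ccl8 at −5.65 and Ccl7 at −3.56, and in Mrc1+ macrophages 1 of 8, Ccl7 at −1.92. The other 7 missed the threshold in these macrophages. Mif differed from Mono by −0.06 in resident mLCs (adjusted p = 0.89). Migrating mLCs had 3 of 8 higher than resident mLCs: Ccl5 (4.53), Ccl9 (3.36) and Ccl4 (2.72). Of 4 integrin ligands, Fn1 (fibronectin, −4.03), C3 (complement, −3.58) and Vcam1 (−1.04) were lower and Spp1 (osteopontin, 1.68) was higher in resident mLCs than in Mono. Ccl2, Ccl20, Cxcl12 and Cxcl14 were not analysed here in donor cells.

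Keratinocytes carried transcripts of ligands for 2 of these receptors at 0.1 CP10K or more in both libraries. Mif, a cytokine that can bind CXCR4, was at 10.5 CP10K in the keratinocytes labelled BMT and 10.6 in those labelled BMT + T cells. Cxcl14, a chemokine of epithelia that has been linked to CXCR4, was at 5.33 and 3.43, and Ccl20, the CCR6 ligand, at 0.144 and 0.127 CP10K. Follicular keratinocytes had 0.248 and 0.296 CP10K of Ccl20. Cx3cl1 reached 0.110 and 0.147 CP10K in differentiated keratinocytes, and Cxcl12 stayed at or below 0.0742 in every keratinocyte cluster. Each label has 1 keratinocyte library, so no test was made.

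**Figure D3:**
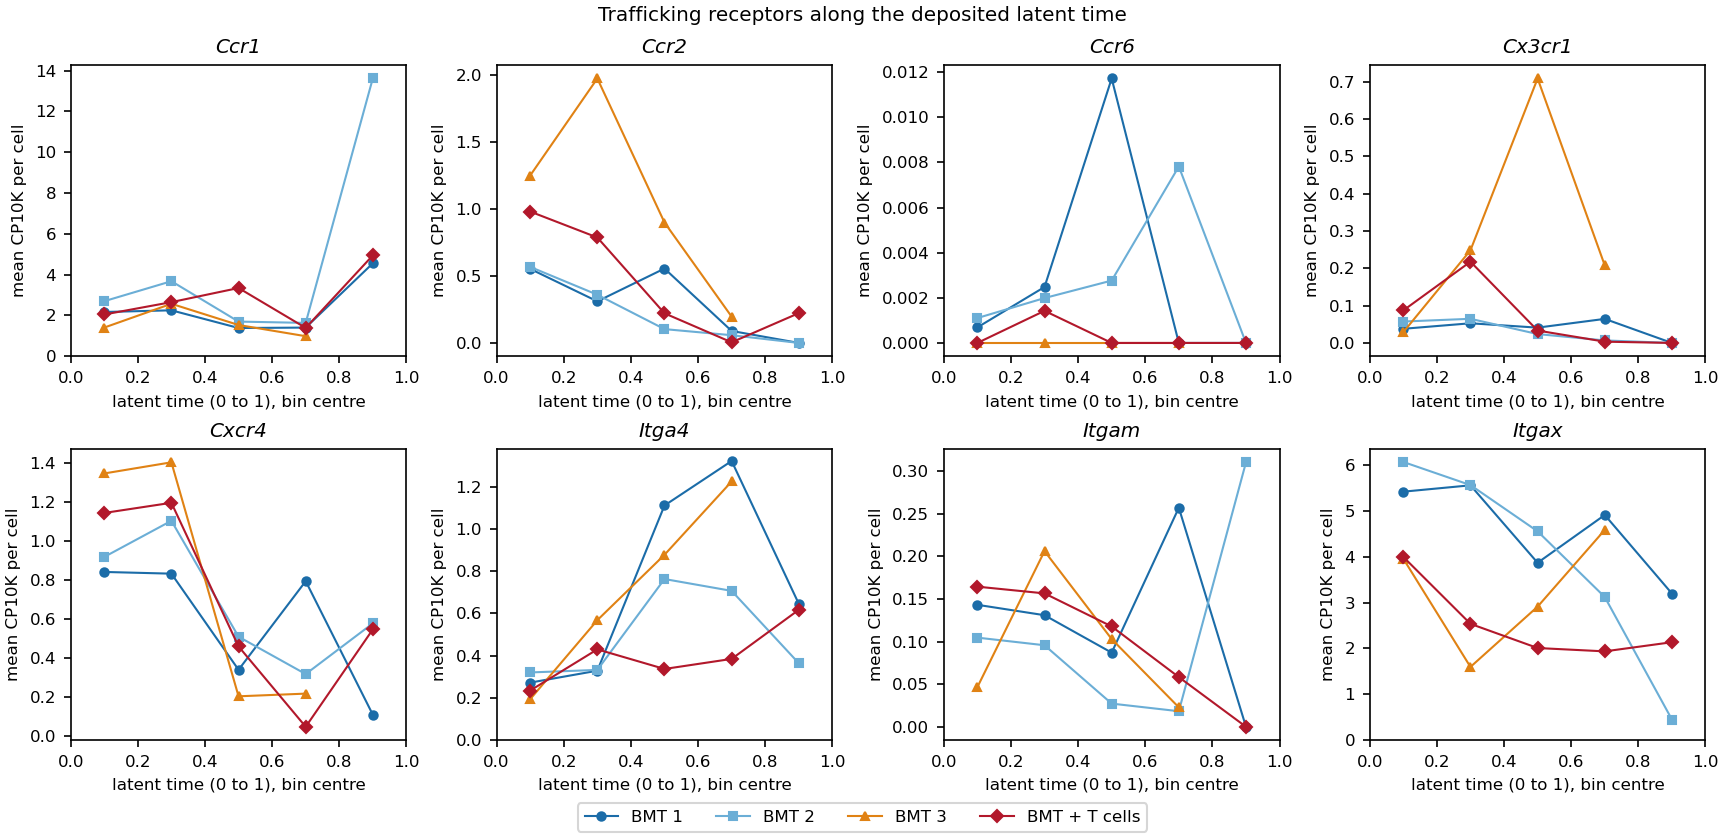
Mean level (CP10K) of the members in 5 equal bins of latent time, with 1 line per donor library for bins of at least 20 cells. The mean over libraries of Ccr2 goes from 0.839 in the first bin to 0.0871 in the fourth, that of Cxcr4 from 1.06 to 0.346, and that of Itga4 from 0.255 to 0.910.

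Latent time, an ordering of cells that the authors derived from RNA velocity on a scale from 0 to 1, gave a view that did not use cluster names but did use the same cells. Over 4 libraries Ccr2 had a mean of 0.839 ± 0.339 CP10K (SD) in the first bin and 0.0871 ± 0.0809 in the fourth. Cxcr4 went from 1.06 ± 0.228 to 0.346 ± 0.319, and Itga4 in the opposite direction, from 0.255 ± 0.0540 to 0.910 ± 0.443. Ccr2 was lower and Itga4 higher in the fourth bin than in the first in each library. Ccr1 was at 2.08 ± 0.531 in the first bin, 1.35 ± 0.271 in the fourth and 7.71 ± 5.13 in the last (n = 3), where BMT 2 had 13.6 CP10K and over all libraries the last bin held 87 S100a+ monocytes and 55 resident mLCs beside 2 other cells. Clusters are mixed within a bin, resident mLCs being spread over 7, 280, 812, 497 and 55 cells. The part of this mixing in the means was not tested, and neither were the differences between bins.

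Pairs of members were next counted in single cells after thinning each cell to 2000 UMIs, which left out 1077 donor cells. Ccr1 and Ccr2 were detected together in 60 of 2390, 180 of 7612, 5 of 188 and 14 of 632 cells of BMT 1, BMT 2, BMT 3 and BMT + T cells. The mean log2 odds ratio over libraries was −0.09 ± 0.56 (SD, n = 4, exact sign-flip permutation p = 1). Ccr2 and Cx3cr1, the receptors that divide classical from patrolling monocytes in blood, met in 3, 4, 1 and 1 cells (0.72 ± 0.66, exact two-sided permutation p = 0.12). No thinned cell held both Ccr2 and Ccr6, and Ccr6 was in 0 thinned cells of BMT 1, BMT 3 and BMT + T cells, so no odds ratio is read for this pair. Itgam and Itgax met in 34, 64, 0 and 4 cells, with a log2 odds ratio of −0.68 ± 0.46 that was negative in all 4 libraries (p = 0.12 by the exact permutation test), but 0.45 at full depth, where 323, 389, 16 and 58 cells held both. With 4 libraries the exact test cannot go below 0.12, and adjusted over the 4 pairs, Ccr2 with Ccr6 included, the lowest p was 0.167. At this depth no pair was shown to exclude or to accompany the other.

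**Figure D4:**
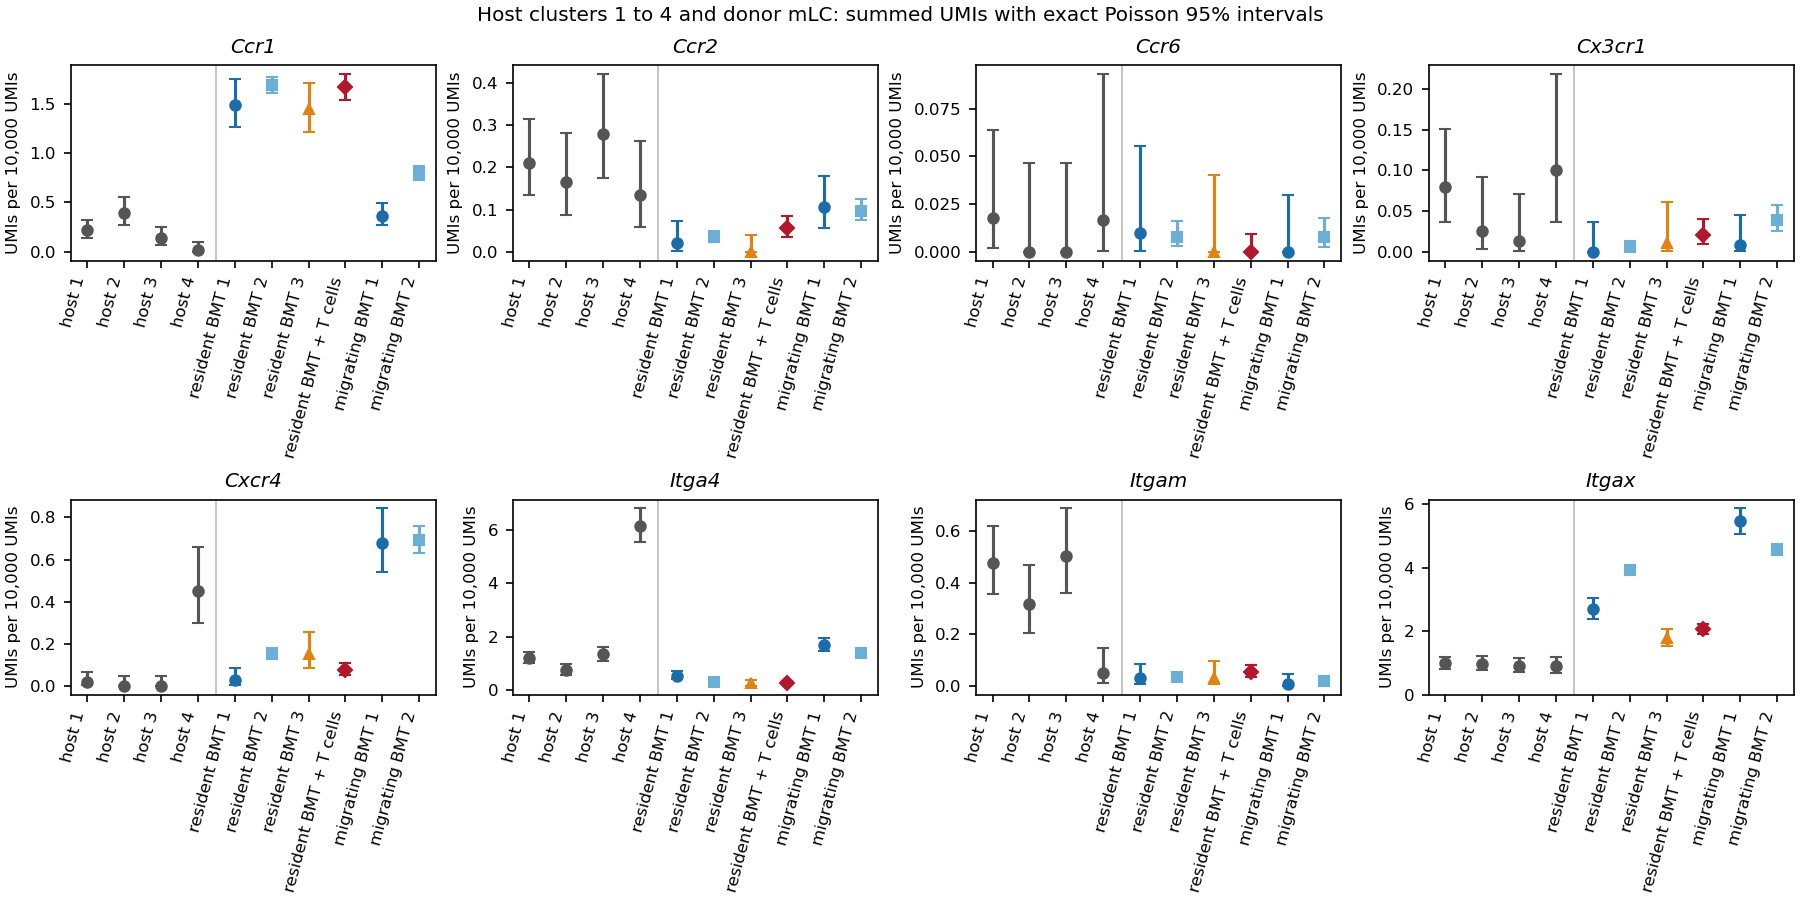
UMIs per 10000 of the members in host clusters 1 to 4 with exact Poisson 95% intervals, beside the resident and migrating mLCs of the donor libraries, on a linear axis of its own for each gene. The tables were normalised separately. Itga4 reaches 6.14 in host cluster 4, where Itgam is at 0.0502 and Ccr1 at 0.0167.

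Host cells that outlasted the transplant made another, single-library view, normalised apart from the donor table and read by cluster number with counting error only. Clusters 1 to 4, with 276, 170, 161 and 90 cells, had LC marker sums of 19.8 to 54.9 CP10K, and cluster 4 had a migration marker sum of 37.3 against at most 2.33 in the other 3. The keratinocyte marker sum of cluster 2 was 53.7 CP10K and the host cells had a median mitochondrial share of 14.0%; their part in the values was not tested. Itga4 gave 136, 59, 106 and 367 UMIs in clusters 1 to 4, or 1.20, 0.748, 1.34 and 6.14 per 10000 UMIs, and the interval of cluster 4 (5.53 to 6.80) lay above that of each other cluster. Cxcr4 gave 2, 0, 0 and 27 UMIs, with 0.452 per 10000 (0.298 to 0.657) in cluster 4. Ccr1 gave 25, 31, 11 and 1 UMIs, and Itgam 54, 25, 40 and 3, both with the fewest in cluster 4. The migrating cluster of the host thus stood on the same side as donor migrating mLCs for Cxcr4, Itga4, Ccr1 and Itgam. Cxcr4 was higher by 1.17 than in cluster 1 and by 2.34 and 1.92 in the donor libraries, and Itga4 by 2.15 against 1.44 and 1.77. Ccr1 was lower (−1.29, with −2.01 and −0.94 in the donor), as was Itgam (−1.53, with −0.38 and −0.16). In BMT 1 the Itgam difference rested on 1 UMI in migrating and 3 in resident mLCs. Each is a log2(CP10K + 0.1) difference without a test, and the share of all genes on the same side is not given here. Against host cluster 1, Itgax and Cx3cr1 differed in sign. Itgax was at −0.49 in the host and 1.01 and 0.21 in the donor libraries, but as summed UMIs per 10000 it was 0.904 (0.679 to 1.18) in host cluster 4 and 0.996 (0.821 to 1.20) in cluster 1, intervals that overlapped. Cx3cr1 was at −0.55 in the host and 0.12 and 0.37 in the donor libraries, on 9 UMIs in host cluster 1 and 6 in cluster 4. Ccr2 gave 24, 13, 22 and 8 UMIs, Cx3cr1 gave 9, 2, 1 and 6 and Ccr6 gave 2, 0, 0 and 1 in clusters 1 to 4. Host cluster 6, of 23 cells with a T cell marker sum of 152 CP10K, carried 3.66 Itgb7 UMIs per 10000. It also held 30 Cx3cr1 UMIs, or 1.71 per 10000 (1.16 to 2.45), the highest host level of this member.

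Between the labels no member was called. BMT + T cells was compared with the 3 BMT libraries over the 3 clusters that all 4 shared, at equal weight, and 0 of 7345 genes (background 0%) passed an absolute log2 difference above 1 with an adjusted p under 0.05 by limma, with 352 at an unadjusted p under 0.05. The largest member difference was Cxcr4 at −0.94 (adjusted p = 0.95), from a mean of −1.51 in BMT + T cells against −0.84, −0.40 and −0.45 in the BMT libraries on the log2(CP10K + 0.1) scale. Itgax followed at −0.78, with 0.83 against 1.86, 1.92 and 1.04, and BMT 3 was the nearest to BMT + T cells. The short names of the libraries fall into pairs, BMT 1 with BMT 2 and BMT 3 with BMT + T cells. In Mono, Itgax, Ccr1 and Cxcr4 were higher in the first pair and Ccr2, Itga4 and Cx3cr1 in the second, without overlap. The share of all genes that separate in this way is not given here, so the split is not read as a trait of the members. Itgam overlapped, and Ccr6 was at 0 in Mono. With the pair as a term the label difference came from BMT + T cells against BMT 3 alone, 1 library each, and Cxcr4 was at −1.05. Leaving out BMT 3, Itgax was called (−1.06, adjusted p = 0.011), Cxcr4 passed the p threshold at −0.89 (adjusted p = 0.013) and Cx3cr1 at 0.81 (adjusted p = 0.0081). BMT + T cells is a single library that was assumed to vary like the others, an exact permutation of 1 against 3 cannot go below 0.25, and the lowest adjusted p for a difference of a member's label effect between clusters was 0.798.

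The genes whose pattern came nearest to each member are given by Pearson's r of log2(CP10K + 0.1) over the 27 combinations, which share libraries, so that r is a description. Ccr2 was followed most closely by Klf4 (0.88), Mcub (0.84) and Nupr1 (0.84), and Ccr1 by 1700017B05Rik (0.90), Tpd52 (0.90) and Emp1 (0.88). For Cxcr4 they were Srgn (0.89), Galnt6 (0.88) and Slc15a3 (0.88), for Cx3cr1 Apoe (0.81), Cd81 (0.77) and Tbpl1 (0.75), and for Ccr6 Zfp367, at 0.71 on very few UMIs. The integrins were matched by other genes: Itgam by C3ar1 (0.90), Pstpip1 (0.89) and Fcer1g (0.89), Itgax by Tnfsf13b (0.88), Axl (0.87) and Dcstamp (0.86), and Itga4 by Batf3 (0.78), Clec2i (0.78) and Ktn1 (0.75). Within the set, Ccr2 and Itgam (0.77) and Ccr1 and Itgam (0.74) were the most alike, whereas the neighbours Itgam and Itgax were at −0.44. Ccr1 and Ccr2 were at 0.42.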

How the data were processed

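Single-cell 5′ libraries of sorted epidermal cells had been quantified by the authors, whose notes name kallisto, bustools, Seurat and the build GRCm38 (versions not given in the sources used here). The deposited expression values are the natural log of 1 plus UMIs per 10000 UMIs of a cell, the mitochondrial share was deposited in percent, and latent time was deposited as a fraction. The authors state that doublets were removed with DoubletFinder and that cells under 500 genes or over 20% mitochondrial UMIs were removed. The files nevertheless hold 72 donor and 133 host cells under the first limit and 181 donor, 208 host and 1 keratinocyte cells over the second, all of which were kept, and doublets were not looked for again. After the log was undone, 100% of values were whole UMIs within a tolerance of 0.001. Genes listed in the donor table made up 91.3% of the UMIs of the median cell. Libraries shared at most 7 cell barcodes.

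For each donor library, linear CP10K values of an annotated cluster were averaged where it held at least 20 cells. Genes whose averages had a mean of 0.1 CP10K or more were tested on log2(CP10K + 0.1), which understates changes of low genes, with limma 3.58.1 (statmod 1.5.0, R 4.3.3; trend and robust prior, a term for the library, every cluster fitted together) and Benjamini-Hochberg adjustment over all genes tested. The script was tested on simulated data. Tables of donor, host and keratinocyte cells were normalised separately, so no test crosses them, and the single host and keratinocyte libraries have exact Poisson or binomial 95% intervals or limits of 3 counts, which cover counting error only. Mice were pooled for sorting and nothing in the labels says that libraries of a group came from separate mice. The p-values of cluster comparisons measure the scatter left after the library term, pooled over all clusters fitted. Those of migrating mLCs thus draw on the scatter of other clusters as well. Between the labels, p-values measure the spread between these libraries. Both kinds of spread may be technical. Levels, means and tests used Python 3.11.15 with numpy 2.4.6 and scipy 1.17.1.

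The members and the gene lists were chosen with earlier results of these data known. Named genes are the members, their beta chains, up to 4 genes past the test with the largest change per list and comparison, keratinocyte ligands of at least 0.1 CP10K, and the 3 genes nearest to each member; S100a8, S100a9, Retnlg, Csf3r and Mmp9 are the markers of the neutrophil list. A result that this rule would name is not reported here. Alternatives were other pseudocounts, no filter, averaged log values, limma-voom with TMM, clusters of at least 50 cells, a fit of the 2 clusters compared alone, thinning to 2000 UMIs, no library block, and each library left out.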

Additional observations from a re-analysis of the deposited data

Results flagged for a closer look

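Itga4 in the Mrc1+ macrophages of BMT 3 was at 1.38 CP10K, from 45 cells, while the other libraries held 0.238 to 0.356 CP10K. The value rested on 9 UMIs in 6 of the 45 cells, at a median depth of 2214 UMIs. With averaged log values it was 0.249, against 0.116 to 0.169 in the other libraries. The gap from 1.38 CP10K to the next library took a larger part of the range than Dixon's limit for 4 samples allows. Of 45 groups of 4 libraries examined, 1 was marked in this way, and chance marks about 1 in 20.

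The migrating cells of host and donor differed in sign for Itgax. For Cx3cr1, on few UMIs, the sign differed against host cluster 1 but not against host cluster 3. For Itgax, host cluster 4 was below host cluster 1 by a log2(CP10K + 0.1) difference of −0.487, whereas migrating mLCs were above resident mLCs by 0.210 and 1.01 in the donor libraries. Summed over cells instead of averaged, UMIs gave 0.904 per 10000 (exact Poisson interval 0.679 to 1.18) in cluster 4 and 0.996 (0.821 to 1.20) in cluster 1, and these intervals overlapped. This difference between host and donor was not tested, as the host cells form 1 library.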

How the results depend on the processing

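The number of members past the test stayed within 1.5 times the reported one in most alternatives. It moved in MC against Mono from 3 (Itgax included) to 6 with limma-voom and TMM, to 1 in a fit of those 2 clusters, and over 1 to 5 with a library left out. In migrating against resident mLCs it moved from 3 to 5 with limma-voom and to 1 after thinning to 2000 UMIs, and between the labels from 0 to 1 with the library name pairing as a term and over 0 to 1 with a library left out. The cluster in which each member was highest did not change under averaged log values, stated cell filters or a minimum of 50 cells. The cause of these moves was not tested, and with the pairing the label difference rests on 1 library against 1. Counts over all genes between the labels went from 0 to 141 with the pairing and 202 without BMT 3.

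Some differences changed sign. Itgam in resident mLCs against Mrc1+ macrophages, past the test as reported, was 0.0304 after thinning; the others named here were not past the test as reported. Cxcr4 in MC against Mono was 0.0786 after thinning and −0.711 to 0.193 with a library left out. In resident mLCs against MC, Ccr1 was 0.0125 with averaged log values, 0.0796 with a minimum of 50 cells and −0.0460 to 0.0208 with a library left out, Itga4 was −0.116 with limma-voom and −0.0990 to 0.364 with a library left out, and Itgam was 0.314 after thinning. In resident mLCs against Mrc1+ macrophages, Itga4 was 0.0612, 0.190, 0.305 and 0.720 with averaged log values, limma-voom, at least 50 cells and thinning, and −0.405 to 0.338 with a library left out. Between the labels, Itga4 was 0.00259 with a pseudocount of 1; Itgam, Ccr1, Ccr2 and Cx3cr1 were −0.0335, 0.109, −0.373 and −0.0304 with cells pooled; Ccr1, Ccr2 and Cx3cr1 were 0.0520, −0.383 and −0.0474 with the pairing; and with a library left out Ccr2 was −0.0437 to 0.365, Itgam −0.00307 to 0.124, Ccr1 −0.251 to 0.0156 and Itga4 −0.253 to 0.194.

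The log2 odds ratios of member pairs turned with depth. Ccr2 with Cx3cr1 was −0.198 over all cells at 4000 UMIs, and in Mono −0.510 at full depth and −1.59 at 4000 UMIs. At full depth Ccr1 with Ccr2 was 0.580 and Itgam with Itgax 0.448, and in Mono the last was −0.0551 at 4000 UMIs. For Ccr2 with Ccr6 the ratio was −0.122 at full depth and −0.170 in Mono. Mono held no Ccr6 UMI, so that value came from the 0.5 added to each count, and neither is read as a turn with depth. With a library left out, Ccr2 with Cx3cr1 in Mono was −0.278 to 0.984, Ccr1 with Ccr2 −0.233 to 0.185 and Itgam with Itgax in Mono −0.248 to 0.467. No paired analysis was possible by replicate number because the labelled groups share only 1; the pairing given above is that of the library names. Ccr6 and Cx3cr1 were below the filter on level.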
